A study of Mus musculus with 8 samples.

Results

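Sterol synthesis, uptake and efflux genes were examined in sorted brain T cells and microglia through 8 genes taken by symbol from the count table, out of 24924 genes analysed. The 8 genes are Hmgcs1 and Sqle (synthesis enzymes), Srebf2 and Insig1 (control of synthesis and uptake), Abca1 and Abcg1 (efflux pumps), and Nr1h2 and Nr1h3 (the nuclear receptors LXRβ and LXRα). Each is described in all 8 libraries. The study sequenced total RNA from cells sorted by surface markers from the brains of C57BL/6 mice aged 20 to 22 months, as 2 libraries in each of 4 groups. These were T cells from mice injected with IL-5, T cells from mice given PBS, microglia from mice injected with IL-5 and microglia from mice given PBS. IL-5, a cytokine best known for its action on eosinophils and B cells, was given at 2 µg a day for 2 days. All groups thus came from old mice, the labels give no genetic change, and they name neither the sorting markers nor the sex. Nothing in the labels says whether the 2 libraries of a group came from separate mice, so the p-values measure the spread between libraries, which may be technical.

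Cholesterol is made from acetyl-CoA by a chain of enzymes, taken up in lipoproteins, and exported to carriers outside the cell. When sterol is scarce in the endoplasmic reticulum, the protein made from Srebf2 is carried to the Golgi and cut, and its released part switches on genes of sterol synthesis and uptake, while INSIG proteins hold it back when sterol is plentiful. When sterol is in excess, oxysterols activate the LXRs, which switch on the efflux pumps. Microglia take up large amounts of cholesterol when they clear myelin, and T cells raise sterol synthesis when they divide.

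The control is known to act through the sterol regulatory element, bound by SREBP proteins, and the DR4 element, bound by LXR with its partner RXR. Promoter windows of 6 genes were searched for the letters of both and of boxes often found beside them. Stretches from 4 genes are printed. The windows were read from the RefSeq promoter table of GRCm38.p6, where 6 of the 8 genes had an entry. Capitals mark a sterol regulatory element (TCACNCCA), a CCAAT box (CCAAT, seen here as ATTGG on the printed strand), an E-box (CACGTG) or a DR4 element (GGTNA, then GGTNA again after 5 bases of any kind), searched on both strands with no overlap between the matches printed. Hmgcs1 is shown as the textbook SREBP target, Srebf2 and Abca1 because their levels differed most clearly between the populations, and Insig1 as an SREBP target whose level did not pass that test. All are printed 5′ to 3′ in the direction of the gene. They are Hmgcs1 upstream (chr13:119690101-119690350, + strand), Insig1 upstream (chr5:28071162-28071362, + strand), Srebf2 upstream (chr15:82147019-82147180, + strand) and Abca1 around its DR4 match (chr4:53159940-53159969, − strand).
Hmgcs1: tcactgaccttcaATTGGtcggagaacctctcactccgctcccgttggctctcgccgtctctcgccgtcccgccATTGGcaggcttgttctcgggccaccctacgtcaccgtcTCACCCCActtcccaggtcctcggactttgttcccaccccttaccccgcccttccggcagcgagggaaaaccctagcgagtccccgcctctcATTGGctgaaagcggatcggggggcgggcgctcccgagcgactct
Insig1: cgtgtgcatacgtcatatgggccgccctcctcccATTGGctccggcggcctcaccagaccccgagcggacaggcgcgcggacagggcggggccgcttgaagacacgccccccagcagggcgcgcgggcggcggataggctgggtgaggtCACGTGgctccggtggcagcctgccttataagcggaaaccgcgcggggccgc
Srebf2: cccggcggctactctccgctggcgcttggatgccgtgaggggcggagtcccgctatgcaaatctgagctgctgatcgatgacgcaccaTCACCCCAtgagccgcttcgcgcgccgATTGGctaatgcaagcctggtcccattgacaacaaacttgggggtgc
Abca1: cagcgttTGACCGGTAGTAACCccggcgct
The letters of the sterol regulatory element stood in the promoter windows of Hmgcs1 and Srebf2, both times as TCACCCCA, and in 4.36% of all 32851 promoters of the table. The CCAAT box stood in the windows of Hmgcs1, Insig1 and Srebf2 and in 37.4% of all promoters. The E-box stood in the windows of Insig1 and Abca1 and in 7.15% of all promoters. The DR4 letters stood only in the Abca1 window among the 6 genes, on the opposite strand, and in 0.718% of all promoters. The Abca1 match lies at -67 from the start used for its window, but not ahead of every annotated start of the gene. A match is a stretch of letters and not a measured binding site.

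Libraries held 23536908 to 30423828 gene counts, and levels are given as counts per 1000000 gene counts (CPM). Of 12 microglia marker genes, the summed level was 99.0 to 171.7 CPM in T cells and 14968 to 28563 CPM in microglia. Of 12 T cell markers, it was 4268 to 7225 CPM in T cells and 17.2 to 177.9 CPM in microglia, so the defining markers of each population were found in its own libraries. Both populations held choroid plexus RNA. Its 10 genes, led by Ttr, summed to 59658 to 117148 CPM in T cells and 36163 to 64281 CPM in microglia. These ranges overlapped only with the treatments pooled. In PBS mice the sums were 59658 to 84888 CPM in T cells and 36163 to 43406 CPM in microglia. In IL-5 mice they were 114207 to 117148 CPM in T cells and 60291 to 64281 CPM in microglia. By edgeR, 4 of the 10 were higher in T cells and 0 lower, beside 8.05% and 11.4% of all genes. The 10 neutrophil genes, led by S100a8, summed to 0.602 to 27.0 CPM in T cells and 13586 to 17601 CPM in microglia. Microglia IL-5 replicate 1 had the fewest genes with a count (13172) and the most reads outside genes (25.5%). The TMM scaling of edgeR, used for all tests, gave factors of 1.27 to 1.32 to T cells and 0.64 to 0.82 to microglia, so a gene can have more CPM in T cells and still a fold change near or below 0 on the TMM scale.

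T cell libraries held more mRNA for Srebf2 and Sqle than microglia libraries, and less for Abca1. The part of the choroid plexus and neutrophil RNA described above in these differences was not tested. Srebf2, the master regulator of sterol synthesis, was 3.26-fold higher in T cells and Sqle, the squalene epoxidase of the same pathway, 3.08-fold higher. Abca1, the pump that loads cholesterol onto apolipoproteins, was 3.70-fold lower in T cells. These 3 genes passed the edgeR quasi-likelihood test at an adjusted p under 0.05, out of 7 of the 8 genes tested, or 42.9%. The 8 genes were chosen with earlier results of these data known, so this share is no test of the set. Over all 15397 genes tested, 2993 passed, or 19.4%, with 1240 higher in T cells (8.05%) and 1753 lower (11.4%). The CPM of T cells and microglia did not overlap for the same 3 genes, where 25.9% of all genes were higher in T cells without overlap and 8.14% lower. With library size only in place of TMM, edgeR called 2790 genes higher and 868 lower in T cells, 76.3% higher where TMM gave 41.4%, and the median log2 fold change of all genes was 0.91 where TMM gave 0.17; Sqle, Srebf2 and Abca1 passed in the same directions under both. In bulk libraries, fewer cells of a type and less RNA per cell cannot be told apart. The levels of all 8 genes are plotted by library.

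**Figure D1:**
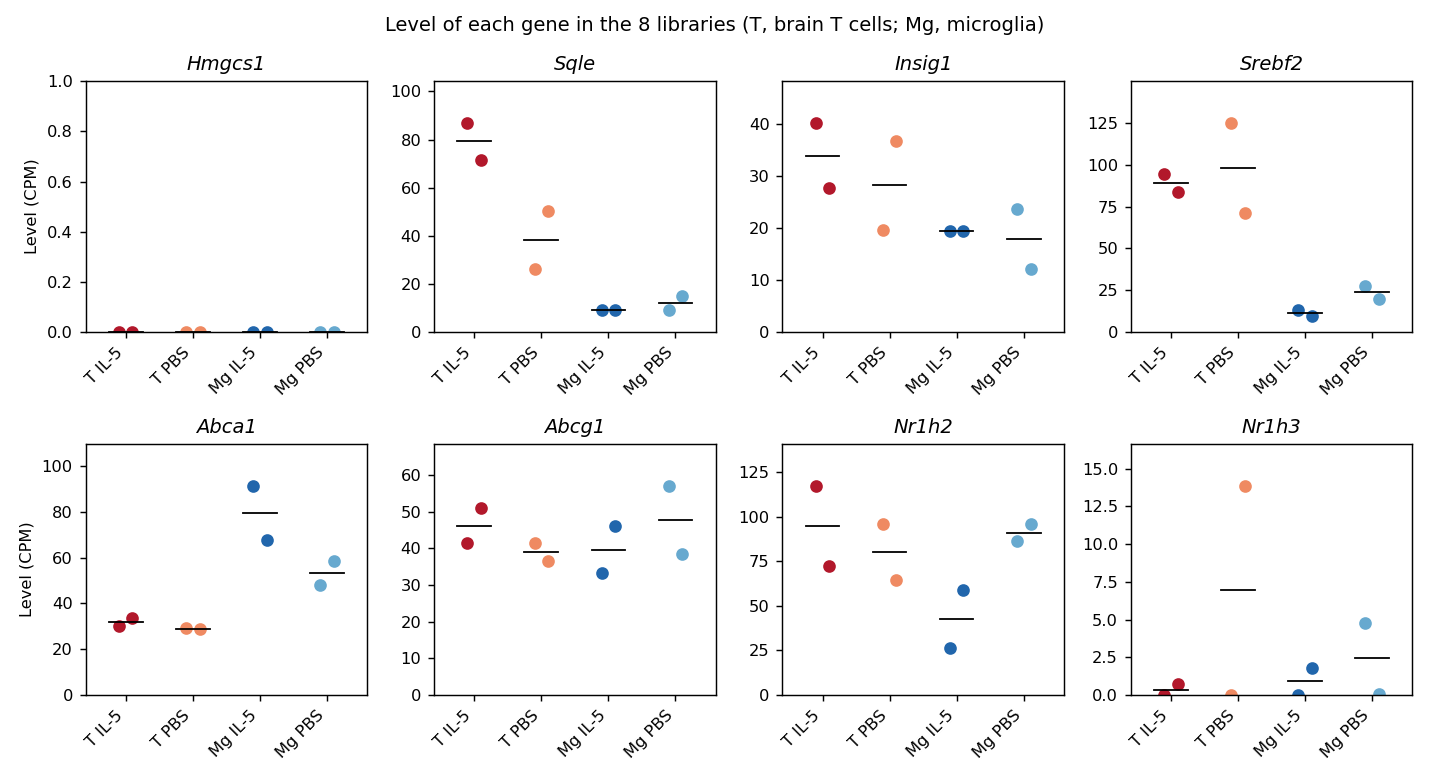
Level (CPM) of each of the 8 genes in the 4 groups, with 1 point per library and a line at the mean of the 2 libraries; T, brain T cells; Mg, microglia. All T cell points lie above all microglia points for Sqle and Srebf2 and below them for Abca1, and Hmgcs1 is listed at 0 throughout.

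Hmgcs1, the cytosolic synthase that makes HMG-CoA for the pathway, was listed at 0 counts in all 8 libraries and was not tested. Its neighbours on chromosome 13, Ccl28, Nim1k and Zfp131, were also listed at 0 in all 8 libraries, and 9 coding genes in a row around Hmgcs1 were at 0. The next gene beyond Ccl28, Tmem267, had 0 to 44 counts. Hmgcs1 shares 557 bases, or 12.1% of its exon length, with the antisense gene Gm48342. Why this stretch is at 0 was not tested, and the 0 cannot be read as absence of Hmgcs1 mRNA.

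Sqle (chr15:59315077-59331192, + strand, GENCODE M21 on GRCm38), which makes the epoxide that is closed into the first sterol, had 86.9 and 71.6 CPM in T cells from IL-5 mice and 26.4 and 50.4 CPM in T cells from PBS mice, against 9.05 and 9.07 CPM in microglia from IL-5 mice and 9.17 and 15.1 CPM in microglia from PBS mice. Every T cell library was above every microglia library. The means were 58.9 ± 26.3 CPM in T cells and 10.6 ± 3.0 CPM in microglia (SD, n = 4 each). The log2 fold change was 1.63 (SE 0.46, edgeR adjusted p = 0.0367). Its call was among the less secure: edgeR kept it in 1 of the 8 fits that leave out 1 library, without T cells PBS replicate 1 (adjusted p = 0.0446). The adjusted p was 0.158 without microglia PBS replicate 1, 0.0933 without microglia PBS replicate 2, 0.0503 without microglia IL-5 replicate 1, 0.0656 without microglia IL-5 replicate 2, 0.134 without T cells PBS replicate 2, 0.141 without T cells IL-5 replicate 1 and 0.0799 without T cells IL-5 replicate 2, all by edgeR.

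Srebf2 (chr15:82147181-82205379, + strand), whose upstream letters are printed above, had 94.6 and 83.8 CPM in T cells from IL-5 mice and 124.9 and 71.2 CPM in T cells from PBS mice, against 13.5 and 9.58 CPM in microglia from IL-5 mice and 27.8 and 19.9 CPM in microglia from PBS mice. The lowest T cell library stood well above the highest microglia library. The means were 93.6 ± 22.9 CPM in T cells and 17.7 ± 7.97 CPM in microglia (SD, n = 4 each), with a log2 fold change of 1.71 (SE 0.39, edgeR adjusted p = 0.0156). The call was lost in edgeR without microglia PBS replicate 2 (adjusted p = 0.0798), without T cells PBS replicate 1 (adjusted p = 0.0641) and without T cells IL-5 replicate 1 (adjusted p = 0.0502). The microRNA gene Mir33, which lies in an intron of Srebf2 and is known to restrain Abca1, was listed at 0 in all libraries. So were 6728 of the 24924 genes, and this 0 cannot be read as absence of the microRNA.

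Insig1 (chr5:28071363-28078662, + strand), the protein that holds SREBPs in the endoplasmic reticulum and is itself an SREBP target, had 40.2 and 27.6 CPM in T cells from IL-5 mice and 19.7 and 36.8 CPM in T cells from PBS mice, against 19.4 and 19.5 CPM in microglia from IL-5 mice and 23.7 and 12.2 CPM in microglia from PBS mice. The populations overlapped through T cells PBS replicate 1 and microglia PBS replicate 1. The means were 31.1 ± 9.28 CPM in T cells and 18.7 ± 4.76 CPM in microglia (SD, n = 4 each), while the log2 fold change on the TMM scale was -0.04 (SE 0.52, edgeR adjusted p = 0.991). With library size only in place of TMM it was 0.73, so its direction hangs on the scaling.

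Abca1 (chr4:53030787-53159895, − strand) had 30.2 and 33.5 CPM in T cells from IL-5 mice and 29.2 and 28.8 CPM in T cells from PBS mice, against 91.5 and 67.6 CPM in microglia from IL-5 mice and 48.1 and 58.5 CPM in microglia from PBS mice. T cells lay in a narrow band below every microglia library. The means were 30.4 ± 2.14 CPM in T cells and 66.4 ± 18.5 CPM in microglia (SD, n = 4 each). The log2 fold change was -1.89 (SE 0.34, edgeR adjusted p = 0.00496), and the call held in edgeR in all 8 fits that leave out 1 library, with an adjusted p of 0.00127 to 0.0213. With library size only the log2 fold change was smaller, at -1.10 (edgeR adjusted p = 0.0453).

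Abcg1 (chr17:31057675-31117988, + strand), the pump that passes cholesterol to high density lipoprotein, had 41.4 and 50.9 CPM in T cells from IL-5 mice and 41.5 and 36.5 CPM in T cells from PBS mice, against 33.2 and 46.2 CPM in microglia from IL-5 mice and 57.1 and 38.4 CPM in microglia from PBS mice. The populations overlapped almost fully, at means of 42.6 ± 6.01 CPM in T cells and 43.7 ± 10.4 CPM in microglia (SD, n = 4 each). The log2 fold change was -0.80 (SE 0.35, edgeR adjusted p = 0.141), and -0.04 with library size only.

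Nr1h2 (chr7:44549616-44553951, − strand), the broadly expressed LXRβ, had 117.4 and 72.5 CPM in T cells from IL-5 mice and 95.7 and 64.3 CPM in T cells from PBS mice, against 26.4 and 58.9 CPM in microglia from IL-5 mice and 86.6 and 95.6 CPM in microglia from PBS mice. Microglia from PBS mice lay among the T cells, and microglia from IL-5 mice below them all. The log2 fold change over both treatments was -0.25 (SE 0.33, edgeR adjusted p = 0.647), and 0.48 with library size only.

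Nr1h3 (chr2:91184061-91202834, − strand), the LXRα of macrophages and liver, had 0 and 0.715 CPM in T cells from IL-5 mice and 0 and 13.9 CPM in T cells from PBS mice, against 0 and 1.80 CPM in microglia from IL-5 mice and 4.77 and 0.0736 CPM in microglia from PBS mice. It was at 0 in 3 libraries and at 3 counts or fewer in 4, while T cells PBS replicate 2 held 357 counts. A value at 0 allows up to 3 counts, or 0.0986 to 0.1275 CPM, for counting error only. Libraries of 1 group thus differed more than the groups did (edgeR adjusted p = 0.917).

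The fold changes were next taken within each treatment, from the same fit of 8 libraries, and are plotted for the 6 genes above the floor in every library. In IL-5 mice, Abca1 was lower in T cells than in microglia by edgeR (log2 fold change -2.20, SE 0.48, adjusted p = 0.026), the 1 gene of 7 tested to pass, beside 8.22% of all genes and 5.73% that passed as lower. That call was lost in edgeR without microglia IL-5 replicate 1 (adjusted p = 0.0752), without T cells IL-5 replicate 1 (adjusted p = 0.162) and without T cells IL-5 replicate 2 (adjusted p = 0.111). It also ended with library size only (log2 fold change -1.32, edgeR adjusted p = 0.123), where Sqle (adjusted p = 0.0245) and Srebf2 (adjusted p = 0.0151) passed instead. In PBS mice none of the 7 passed in edgeR, beside 7.18% of all genes, and 2 had an unadjusted p under 0.05, Srebf2 and Abca1, beside 22.4% of all genes. Their log2 fold changes there were 1.34 (SE 0.55, edgeR adjusted p = 0.191) and -1.57 (SE 0.47, edgeR adjusted p = 0.0812). DESeq2 called Abca1 in PBS mice (adjusted p = 0.0191), beside 18.3% of all genes, and called Sqle, Srebf2 and Abca1 in IL-5 mice, beside 18.5%. Sqle was 0.97 (SE 0.64) in PBS mice and 2.28 (SE 0.67) in IL-5 mice on the log2 scale.

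**Figure D2:**
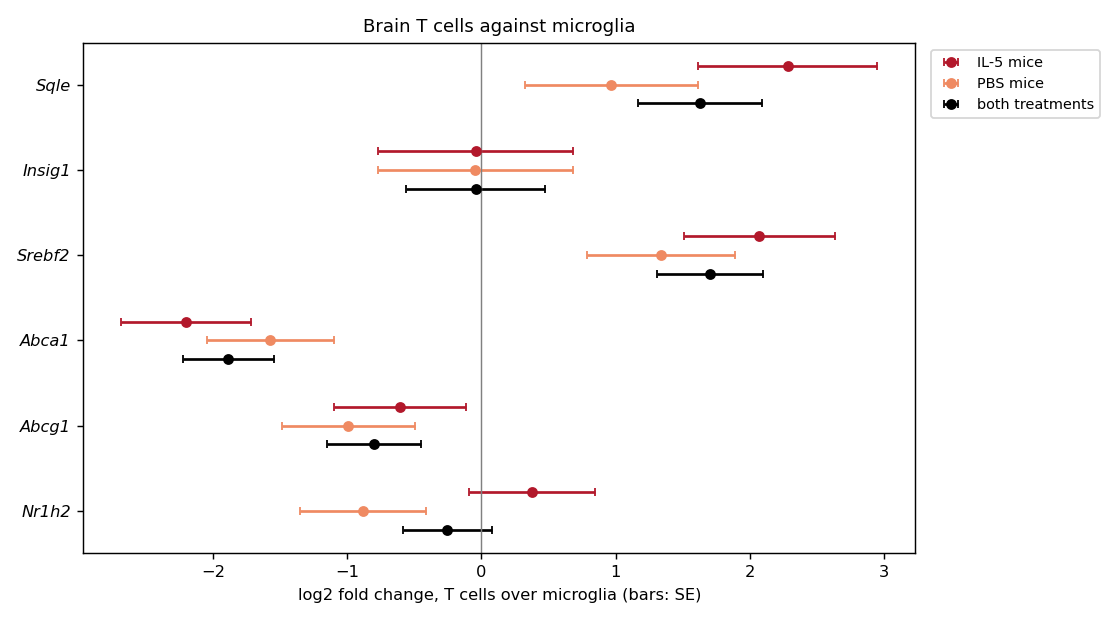
log2 fold change of T cells over microglia (x axis; points, edgeR estimates; bars, SE) for 6 genes, in IL-5 mice, in PBS mice and over both. Srebf2 and Sqle lie right of 0 and Abca1 left of 0 in each case, while Insig1 sits at -0.04 throughout.

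Within a library, levels per kilobase of exon can be set side by side across genes, since they share scaling. Nr1h2 had the highest CPM per kilobase of the 8 genes in 7 libraries, and Abca1 in microglia IL-5 replicate 1. In T cells the mean CPM per kilobase was 26.1 ± 7.14 for Nr1h2, 13.03 ± 3.19 for Srebf2, 10.6 ± 4.74 for Sqle, 10.04 ± 3.0 for Insig1, 5.83 ± 0.823 for Abcg1, 2.94 ± 0.207 for Abca1 and 1.45 ± 2.71 for Nr1h3 (SD, n = 4). Srebf2, Sqle and Insig1 lay within their spread of each other. In microglia it was 19.9 ± 9.29 for Nr1h2, 6.41 ± 1.79 for Abca1, 6.05 ± 1.54 for Insig1, 5.99 ± 1.42 for Abcg1, 2.46 ± 1.11 for Srebf2, 1.91 ± 0.541 for Sqle and 0.660 ± 0.887 for Nr1h3 (SD, n = 4). There, Abca1, Insig1 and Abcg1 were indistinguishable by spread, as were Srebf2 and Sqle.

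Ratios of these per-kilobase levels do not depend on how libraries are scaled. Sqle over Abca1, 1 synthesis enzyme over 1 efflux pump, was 1.69 to 5.38 in T cells and 0.185 to 0.482 in microglia, without overlap. Srebf2 over Insig1 was 0.833 to 2.74 in T cells and 0.212 to 0.700 in microglia, also without overlap. Abca1 over Abcg1 was 0.464 to 0.556 in T cells and 0.593 to 1.94 in microglia, with Abcg1 the higher of the pair in every T cell library. These ratios follow from the genes that differed above and were not tested again.

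Ratios between sister genes overlapped between the populations. Insig1 over Insig2, its sister protein, was 0.306 to 1.24 per kilobase in T cells and 0.337 to 0.575 in microglia. Srebf2 over Srebf1, which encodes the SREBP of fatty acid synthesis, was 0.675 to 4.73 in T cells and 0.256 to 0.948 in microglia. Nr1h2 over Nr1h3 was 3.48 to 76.05 in the 4 libraries where Nr1h3 had more than 3 counts.

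By the smallest root mean square difference of centred log2 CPM over the 8 libraries, among 11462 genes, the genes most like Sqle were Mprip (0.28) and Ahcyl2 (0.29). For Srebf2 they were Aplp2 and Itga3 (0.17 each, to 2 decimals) and for Abca1 Pomp (0.067) and Med29 (0.16). For Abcg1 they were Nudt3 (0.15) and Mterf4 (0.16), for Nr1h2 Ckb and Vwa1 (0.23 each), and for Insig1 Secisbp2l (0.21) and Col4a1 (0.23). Nr1h3 had no close match, its nearest being Ighmbp2 (1.22) and 1700003E16Rik (1.23). Sqle and Srebf2 lay 0.73 apart on this measure, a description with no test.

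The other genes of the pathway were read from 6 lists, with counts to be read beside the 8.05% of all genes called higher in T cells and the 11.4% called lower, or 18.1% and 5.64% with library size only. The lists, too, were chosen with earlier results of these data known. Of 20 tested sterol synthesis enzymes, 2 were higher in T cells (10%) and 1 lower (5%) by edgeR, near the shares of all genes, and the median log2 fold change was 0.51, beside 0.17 over all genes. Lbr, which is both a sterol reductase and an anchor of chromatin at the nuclear envelope, averaged 320.4 ± 88.6 CPM in T cells and 37.2 ± 7.76 CPM in microglia (SD, n = 4 each; log2 fold change 2.33, SE 0.33, edgeR adjusted p = 0.00157). Ebp, the sterol isomerase, averaged 75.0 ± 17.0 CPM in T cells and 127.8 ± 22.5 CPM in microglia (log2 fold change -1.52, SE 0.27, edgeR adjusted p = 0.0047). With library size only, 5 enzymes were called higher (25%) and 0 lower, at a median of 1.27 beside 0.91 over all genes, and Ebp no longer passed (edgeR adjusted p = 0.0825).

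Of 14 tested genes of SREBP control, 1 was higher in T cells, Srebf2 (7.14%), and 2 were lower (14.3%) by edgeR, near the shares of all genes (8.05% and 11.4%), at a median of -0.07. Mbtps2, a protease that cuts SREBPs in the Golgi, averaged 8.21 CPM in T cells and 24.4 CPM in microglia (log2 fold change -2.23, edgeR adjusted p = 0.0485), and Rnf139, a ubiquitin ligase of the endoplasmic reticulum, 93.0 CPM in T cells and 105 CPM in microglia (log2 fold change -0.93, edgeR adjusted p = 0.0498). Neither passed with library size only, where 2 genes of the list were higher and 0 lower. The list's median was then 0.68, beside 0.91 over all genes. Of the 8 fits that leave out 1 library, Mbtps2 passed in 2 (edgeR adjusted p up to 0.192) and Rnf139 in 3 (up to 0.177).

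Of 18 tested genes of uptake and intracellular transport, 1 was higher in T cells (5.56%) and 4 were lower (22.2%) by edgeR, beside 8.05% and 11.4% of all genes, at a median of 0.17. The balance turned with library size only, to 6 higher and 3 lower at a median of 0.88, beside 0.91 over all genes. Osbp, a carrier of sterol between membranes, was the higher one (59.3 CPM in T cells and 7.33 CPM in microglia, log2 fold change 2.33, edgeR adjusted p = 0.0228). Npc2, the protein that hands cholesterol out of lysosomes, averaged 383.2 ± 57.0 CPM in T cells and 1119 ± 181 CPM in microglia (SD, n = 4 each; log2 fold change -2.31, edgeR adjusted p = 0.00019). Stard3, a late endosomal sterol carrier, had a log2 fold change of -2.91 (edgeR adjusted p = 0.000378) and Lrp1, a receptor for APOE particles, one of -1.91 (edgeR adjusted p = 0.0148), a call that ended with library size only (-1.10, adjusted p = 0.0985). Msr1, the macrophage scavenger receptor and the remaining lower gene, was at 0 in 3 T cell libraries and 0.0389 CPM in the other, against 0.221 to 14.2 CPM in microglia.

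Of 13 tested genes of efflux, carriers and esterification, Abca1 was lower in T cells and Nceh1, a hydrolase that frees cholesterol from its esters, was higher (71.9 CPM in T cells and 13.8 CPM in microglia, log2 fold change 1.66, SE 0.41, edgeR adjusted p = 0.0219). The list's median was -0.45, beside 0.17 over all genes. With library size only it was 0.295, beside 0.91 over all genes, with 2 genes higher and 1 lower. Apoe, the main apolipoprotein of the brain, averaged 2499 CPM in T cell libraries and 2844 CPM in microglia, and did not pass (log2 fold change -0.89, SE 0.28, edgeR adjusted p = 0.0547). Of 20 tested LXR genes, partners and targets, 3 were higher in T cells (15%) and 3 lower (15%), beside 8.05% and 11.4% of all genes, at a median of -0.68. The higher ones were the corepressor Ncor1 (1.89), the desaturase Scd2 (1.12) and the phosphodiesterase Smpdl3a (1.13), and the lower ones Lpcat3 (-3.40), which remodels phospholipids, the LXR partner Rxrb (-2.0) and Abca1, all as log2 fold changes. With library size only the list had 5 higher (25%) and 2 lower (10%), beside 18.1% and 5.64% of all genes, at a median of 0.03, and Rxrb did not pass (-1.23, edgeR adjusted p = 0.136).

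Fatty acid synthesis, the branch governed by SREBP1, had all 12 tested genes at a log2 fold change above 0, where 53.7% of all genes were, at a median of 0.98. Of the 12, 11 were above 0 without T cells IL-5 replicate 2 or without T cells PBS replicate 2, and 10 in PBS mice alone. In edgeR 3 genes passed, all higher in T cells (25%, beside 8.05% of all genes). Fasn, the fatty acid synthase, averaged 34.8 ± 6.15 CPM in T cells and 3.21 ± 1.27 CPM in microglia (SD, n = 4 each; log2 fold change 2.71, edgeR adjusted p = 0.0224). Elovl6, an elongase, averaged 32.2 ± 5.49 CPM in T cells and 1.86 ± 1.31 CPM in microglia (SD, n = 4 each; log2 fold change 3.40, edgeR adjusted p = 0.0247), and Scd2 passed as above.

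**Figure D3:**
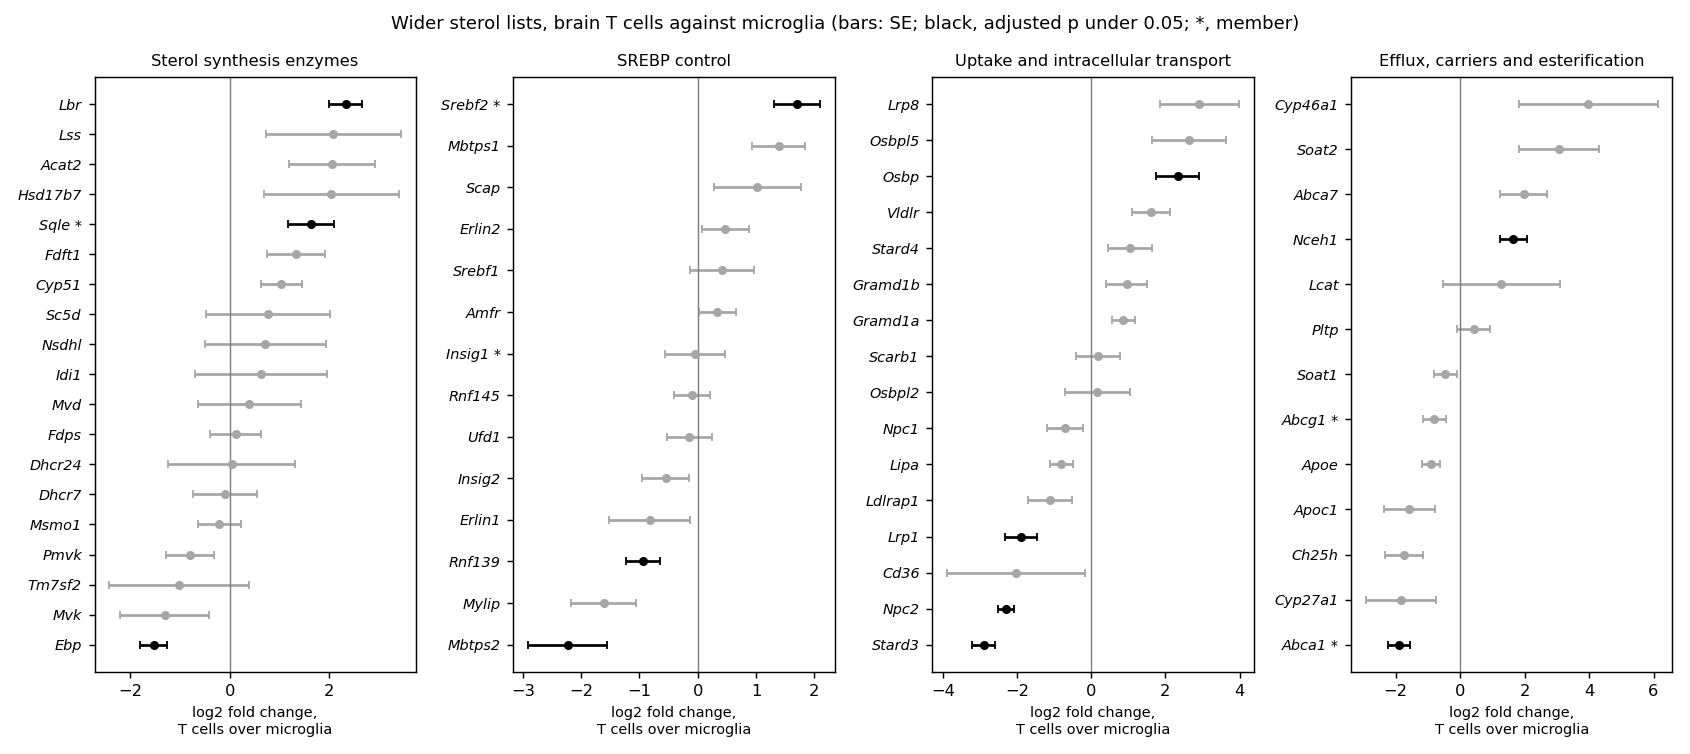
log2 fold change of T cells over microglia (x axis; bars, SE) for the tested genes of 4 lists that are reported here, with black for an adjusted p under 0.05 and a star for the genes followed here. Most synthesis enzymes lie near or right of 0 with wide bars, and Lrp1, Npc2 and Stard3 pass on the left of the transport list; Msr1, near 0 counts in T cells, is not drawn.

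Lbr, Ebp, Npc2, Stard3, Lrp1, Msr1, Ncor1, Lpcat3 and Abca1 passed in edgeR in all 8 fits that leave out 1 library, though Ebp and Lrp1 did not pass with library size only. Scd2 and Smpdl3a passed in 7, failing without microglia PBS replicate 2 (adjusted p = 0.0806 for Scd2 and 0.0637 for Smpdl3a). Rxrb passed in 6 (adjusted p up to 0.075), Osbp in 4 (up to 0.0787), and Nceh1, Fasn and Elovl6 in 3 each (up to 0.097, 0.101 and 0.0946 in that order). Within PBS mice edgeR called Lbr, Ebp, Npc2, Stard3, Osbp, Ncor1, Lpcat3 and Smpdl3a with the same signs, and Vldlr, a lipoprotein receptor, higher in T cells (log2 fold change 3.0, SE 0.78, adjusted p = 0.0498). Within IL-5 mice it called Lbr, Npc2, Stard3, Lpcat3, Scd2 and Abca1. Of other brain cell markers, 8 oligodendrocyte genes summed to 1675 to 2713 CPM in T cells and 230.0 to 832.8 CPM in microglia, without overlap. The 10 border macrophage and monocyte genes, led by H2-Aa, went the other way. They summed to 714 to 977 CPM in T cells and 1377 to 2741 CPM in microglia, without overlap. By edgeR, 5 of the 9 tested were lower in T cells and 1 higher, beside 11.4% and 8.05% of all genes. The 8 endothelial and mural genes, led by Cldn5, summed to 807.5 to 1635 CPM in T cells and 542.7 to 940.3 CPM in microglia, with overlap. Their part in the sterol differences, like that of the choroid plexus and neutrophil genes above, was not tested.

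The second question of the design is what IL-5 did within each population, with the fold changes plotted for 6 genes. In T cells, none of the 7 genes tested passed, with the highest estimate for Sqle. Of 13897 genes tested in T cells edgeR called 0 (0%), with 600 at an unadjusted p under 0.05 (4.32%), and DESeq2 called 658 (4.73%). Sqle was 86.9 and 71.6 CPM in T cells from IL-5 mice, against 26.4 and 50.4 CPM in T cells from PBS mice, with no overlap between the groups. Its log2 fold change was 1.1 (SE 0.48), an estimate of 2.14-fold higher that did not pass in edgeR (adjusted p = 1.0) or DESeq2 (adjusted p = 0.149).

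Abca1 was the only other gene of the 7 whose T cell groups did not overlap, at 30.2 and 33.5 CPM with IL-5, against 29.2 and 28.8 CPM with PBS, a log2 fold change of 0.18 (SE 0.57). Both IL-5 libraries were above both PBS ones for 16.6% of all genes tested in T cells, beside 2 of the 7. The other estimates in T cells were 0.32 for Insig1, -0.09 for Srebf2, 0.29 for Abcg1 and 0.29 for Nr1h2, each smaller than its SE (0.64, 0.39, 0.48 and 0.42 in that order). Nr1h3 had 0 and 0.715 CPM with IL-5, against 0 and 13.9 CPM with PBS, so that 1 library set its estimate. T cell markers summed to 4268 to 5215 CPM in T cells from IL-5 mice, against 6497 to 7225 CPM in T cells from PBS mice. Choroid plexus genes summed to 114207 to 117148 CPM with IL-5, against 59658 to 84888 CPM with PBS, and all 10 had a log2 fold change above 0. The part of these shifts in the Sqle values was not tested.

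**Figure D4:**
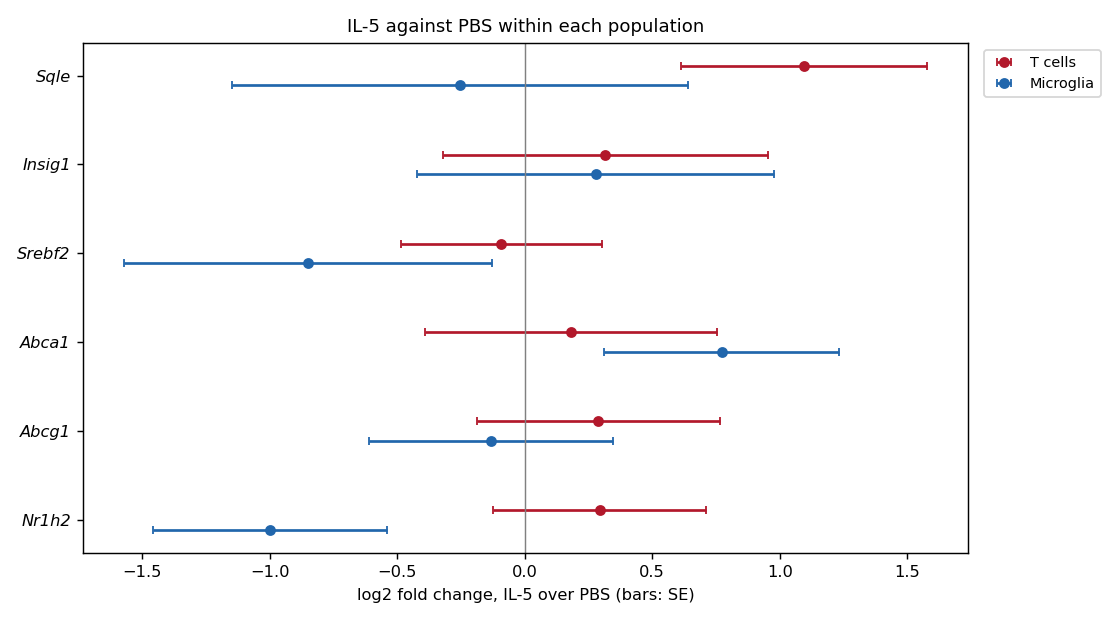
log2 fold change of IL-5 over PBS (x axis; points, edgeR estimates; bars, SE) for 6 genes in T cells and in microglia. Sqle in T cells (1.1) and Nr1h2 in microglia (-1.0) lie farthest from 0, and none passed the test.

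In microglia, none of the 7 genes passed either, and Nr1h2, Srebf2 and Abca1 had the largest estimates among the 6 genes above the floor in every library. Of 13764 genes tested in microglia edgeR called 0 (0%), with 617 at an unadjusted p under 0.05 (4.48%), and DESeq2 called 67 (0.487%). Nr1h2 was 26.4 and 58.9 CPM in microglia from IL-5 mice, against 86.6 and 95.6 CPM in microglia from PBS mice, without overlap. Its log2 fold change was -1.0 (SE 0.46, edgeR adjusted p = 0.964), and -0.65 without IL-5 replicate 1, the library with the fewest genes detected.

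Abca1 was 91.5 and 67.6 CPM in microglia from IL-5 mice, against 48.1 and 58.5 CPM in microglia from PBS mice, both IL-5 values being the higher ones. Its log2 fold change was 0.77 (SE 0.46, edgeR adjusted p = 0.974), and 0.32 without IL-5 replicate 1. Srebf2 was 13.5 and 9.58 CPM with IL-5, against 27.8 and 19.9 CPM with PBS, with both IL-5 libraries lower and a log2 fold change of -0.85 (SE 0.72, edgeR adjusted p = 0.984). Sqle was 9.05 and 9.07 CPM with IL-5, against 9.17 and 15.1 CPM with PBS, a gap to the nearer PBS library smaller than the spread of the PBS libraries.

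Groups did not overlap for 4 of the 7 genes in microglia, 1 higher with IL-5, beside 15% of all genes tested there, and 3 lower, beside 23.1%. The remaining estimates were 0.28 for Insig1 (SE 0.70), -0.13 for Abcg1 (SE 0.48) and -1.45 for Nr1h3 (SE 2.93). Microglia markers summed to 14968 to 21804 CPM in microglia from IL-5 mice, against 27092 to 28563 CPM in microglia from PBS mice. Choroid plexus genes summed to 60291 to 64281 CPM with IL-5, against 36163 to 43406 CPM with PBS. Their part in the 3 lower genes was not tested.

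The wider lists held no gene that passed in edgeR for IL-5 against PBS in T cells or microglia. In T cells the smallest unadjusted p-values were those of Sqle and Msmo1 (synthesis), Mbtps1 and Erlin1 (SREBP control), Npc1 and Osbp (transport), Apoe and Pltp (carriers), Lpcat3 and Apoe (LXR targets) and Elovl5 and Scd2 (fatty acid synthesis). Msmo1, a sterol methyl oxidase, was 214.3 and 79.6 CPM with IL-5, against 66.6 and 75.8 CPM with PBS, a higher estimate carried by 1 library. Lpcat3 was 63.8 and 77.6 CPM with IL-5, against 14.7 and 27.0 CPM with PBS, an estimate on the log2 scale of 1.81 (SE 0.53, edgeR adjusted p = 1.0). Sterol synthesis enzymes had a median log2 fold change of 0.04 in T cells, with 12 of 20 above 0, beside -0.01 over all genes, against 1.1 for Sqle itself.

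In microglia the smallest unadjusted p-values were those of Acat2 and Fdps (synthesis), Mbtps2 and Erlin2 (SREBP control), Scarb1 and Lipa (uptake), Soat2 and Abca1 (efflux and esterification), Scd1 and Nr1h2 (LXR) and Scd1 and Scd2 (fatty acid synthesis). Mbtps2 was 49.0 and 23.4 CPM with IL-5, against 12.3 and 13.1 CPM with PBS, an estimate on the log2 scale of 1.74 (SE 0.68, edgeR adjusted p = 0.964), the only gene of the 6 lists under an unadjusted 0.05 there. Scarb1, the receptor for high density lipoprotein, was 3.99 and 39.2 CPM with IL-5, against 115.9 and 79.6 CPM with PBS, an estimate on the log2 scale of -2.17 (SE 0.91, edgeR adjusted p = 0.964). Sterol synthesis enzymes had a median of -0.25, with 5 of 20 above 0, beside -0.02 and 6744 of 13764 over all genes. Their summed level was 286.5 CPM in IL-5 replicate 1 and 527 CPM in IL-5 replicate 2, against 536.3 and 502.5 CPM with PBS. The lower sum with IL-5 thus rested on 1 library.

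Whether the response to IL-5 differed between T cells and microglia was tested as an interaction over the 8 libraries. None of the 7 genes passed in edgeR, nor did any of 15397 genes (0%), with 798 at an unadjusted p under 0.05 (5.18%) and 181 called by DESeq2 (1.18%). The difference of log2 fold changes, T cells minus microglia, was 1.31 for Sqle (SE 0.91, edgeR adjusted p = 0.916), 1.26 for Nr1h2 (SE 0.66, edgeR adjusted p = 0.904), 0.73 for Srebf2 (SE 0.77) and -0.63 for Abca1 (SE 0.66). It was 0.38 for Abcg1 (SE 0.69), 0.003 for Insig1 (SE 1.03) and -2.83 for Nr1h3 (SE 5.03). Of the wider lists, Lpcat3 had the smallest unadjusted p, with a difference of 2.28 (SE 0.56, edgeR adjusted p = 0.811). Vldlr (-2.79, SE 1.04), Osbp (-2.72, SE 1.14) and Apoe (1.31, SE 0.56) were also under an unadjusted 0.05 in edgeR, at an adjusted p of 0.904 each. So was 1 more gene of the LXR list, with a difference below 0. It falls outside the 2 smallest p-values named from each list.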

How the data were processed

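Sorted brain T cells and microglia gave 8 single-end RNA libraries, 2 in each of 4 groups set by the labels. The authors deposited a table of unscaled whole-number read counts with 24953 entries. Tools listed, per the submitters' processing notes, were the aligner STAR 2.5.3a, DESeq2 1.1, Cufflinks 2.0, FastQC 1.0.0 and bcl2fastq 2.20.0.422, with the build mm10 (GRCm38). The counting tool and strand setting are not given in the sources used here, so reads of antisense partners cannot be told apart.

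Here 2 summary entries and 27 genes with unreadable cells were left out, which left 24924 genes, of which 6728 were at 0 throughout. CPM is per 1000000 gene counts, without TMM; CPM per kilobase uses merged exon lengths of GENCODE M21. Tests were two-sided edgeR 4.0.16 quasi-likelihood tests (R 4.3.3) with TMM, robust dispersion and filterByExpr at a minimum count of 10, adjusted by Benjamini-Hochberg over all genes tested, with a threshold of 0.05. IL-5 was tested within each population, and T cells against microglia and the interaction over all 8 libraries. Each SE was derived from the F statistic of its fold change. The code of the fits was tried on simulated counts with 1 dispersion set in advance for all genes. That trial does not show how well changes are detected in these libraries. DESeq2 1.42.0, other scalings and filters, a replicate block and leaving out each library were the alternatives. The 8 genes and the lists were chosen with earlier results of these data known. All 8 genes are named; from each list, the genes past the threshold (all where 6 or fewer in a direction, else the 4 with the smallest p), or where none passed the 2 with the smallest p; from the marker lists, the most abundant gene. Apoe, Insig2 and Srebf1 were named in addition, after their values were seen. A few genes counted in the lists are not reported here by name.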

Additional observations from a re-analysis of the deposited data

How the results depend on the processing

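Without each library in turn, edgeR called 1986 to 3634 genes between T cells and microglia and 1 to 2 of the 7 genes tested; 508 to 2028 genes and 0 to 1 in PBS mice; 385 to 2209 genes and 0 to 1 in IL-5 mice; 0 to 1255 genes and 0 to 0 for IL-5 in microglia (1255 without IL-5 replicate 2, with IL-5 replicate 1 left to stand alone and assumed to vary like the other group); 0 to 1 genes and 0 to 0 for IL-5 in T cells; and 0 to 232 genes and 0 to 0 for the difference of the responses. The fewest calls between the populations came without T cells IL-5 replicate 1 and the most without microglia IL-5 replicate 2; why was not tested.

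Signs of log2 fold changes turned without 1 library for Insig1 (range -0.34 to 0.17 between the populations, -0.58 to 0.47 in PBS mice, -0.37 to 0.23 in IL-5 mice, -0.13 to 0.83 for IL-5 in microglia, -0.057 to 0.82 for IL-5 in T cells, -0.59 to 0.54 for the difference) and for Nr1h3 (-5.68 to 3.35, -9.36 to 5.74, -7.91 to 6.00, -8.95 to 3.52, -10.54 to 6.32 and -8.73 to 7.36 in the same order). They also turned for Nr1h2 in IL-5 mice (-0.044 to 0.73) and for IL-5 in T cells (-0.11 to 0.62), Srebf2 for IL-5 in T cells (-0.45 to 0.39), and Sqle (-0.58 to 0.14) and Abcg1 (-0.40 to 0.18) for IL-5 in microglia. None of these had passed.

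With library size only, signs turned between the populations for Insig1 (0.73), Nr1h2 (0.48) and Nr1h3 (0.10), for Insig1 in PBS mice (0.65) and for Insig1 (0.80) and Abcg1 (0.22) in IL-5 mice. Scaling to equal microglia markers moved the median of all genes to 0.44 and turned Sqle (0.22) and Abcg1 (0.34) for IL-5 in microglia; scaling to equal T cell markers moved it to 0.48 and turned Srebf2 (0.40) for IL-5 in T cells. The near-zero difference for Insig1 became -0.022 with RLE factors and with DESeq2 and -0.013 with a 5 CPM filter.

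DESeq2 called 4709 genes between the populations, 2825 in PBS mice with 1 of the 7, 2843 in IL-5 mice with 3 of the 7, 67 and 658 for IL-5 in microglia and T cells, and 181 for the difference. Library size only called 1 of the 7 in PBS mice and 2 in IL-5 mice, Sqle and Srebf2 in place of Abca1. No low count filter gave 1722 genes in PBS mice, 2 of the 7 in IL-5 mice, 2 genes for IL-5 in T cells and 31 for the difference. Fitting the 4 libraries compared alone gave 1666 genes in PBS mice, and in IL-5 mice 217 genes and 0 of the 7. A fit of all 8 libraries gave 2 genes for IL-5 in T cells. Causes were not tested.

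Nothing in the labels says that replicate numbers pair libraries. Deviations of same-numbered libraries from their group means correlated at 0.00996 in microglia, 0.0106 in T cells, and -0.00409 to 0.0189 between T cell and microglia groups. With the number as a block within each population, 1174 genes and 0 of the 7 were called between the populations (edgeR adjusted p of 0.277 for Sqle, 0.122 for Srebf2 and 0.0657 for Abca1), 567 genes in PBS mice, and 703 genes and 0 of the 7 in IL-5 mice; the sign turned for Nr1h2 between the populations (0.29), Nr1h3 in PBS mice (-8.10) and the Insig1 difference (-0.025). Of 12 fatty acid synthesis genes, 10 were above 0 under the block and 0 were called.

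With 2 libraries a group, the SE for IL-5 in microglia was 0.46 to 0.89 on Sqle, Abca1 and Srebf2. In edgeR 0 of 13764 genes passed there, among them Scarb1 with an estimate of -2.17 (SE 0.91). Effects of IL-5 much larger than these SEs could thus be missed. Hmgcs1 gave no value under any setting.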
